A study of Mus musculus with 2 samples.

Results

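The genes described here make cholesterol or regulate and move it, and they were read from liver RNA of male mice with and without a deletion of Fhl2, which encodes a LIM-domain adaptor of transcription factors. They were chosen by name, as 30 genes of the mevalonate and sterol pathway and its control, by a rule that uses no measured value, although earlier results of these data were known when the list was drawn up. Of the 30, 27 were named by at least 1 probe with a single gene symbol, out of 19938 genes measured that way, and Acat2, Soat1 and Soat2 were not analysed here. One array carried a wild-type pool, and the other a pool labelled FHL2-/-. Each pool joined left-lobe liver RNA of 3 males aged 10 to 11 weeks, and both groups are on the Hybrid Black Swiss/129-SV/J background.

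Liver makes cholesterol from acetyl-CoA by way of mevalonate, isoprenoid diphosphates and squalene, which is closed into lanosterol and then trimmed to cholesterol. When sterol in the endoplasmic reticulum is low, the escort protein Scap carries the transcription factor SREBP2, the product of Srebf2, to the Golgi, where proteases release its active part. That part switches on most enzymes of the route, together with the CCAAT-binding factor NF-Y. When sterol is plentiful, the Insig proteins hold Scap back. Cells also take up cholesterol in lipoproteins, which the lysosomal proteins Npc1 and Npc2 release.

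All values are log2 array values as deposited, and a difference is the knockout-labelled pool minus the wild-type pool. With 1 array per pool there are no replicates, so no difference between the pools has a test, an SD or a p-value. A gauge of error comes from 660 genes read by more than 1 probe, whose differences varied between probes of a gene with an SD of 0.143, called the probe SD here. Variation between animals and between hybridisations is not in it. A gene entered the counts when its mean value was at least 5.44, the 40th percentile of probes with 1 symbol, which kept 11924 genes and all 27 sterol genes measured.

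Over probes with 1 symbol the wild-type array had a median of 6.01 and the knockout-labelled array one of 5.99. Fhl2 itself lay below the level filter in both pools, at 5.30 and 5.33, with 1 probe, and the labels do not give the deleted exons, so this probe does not check the genotype. The hepatocyte markers were bright, with Apoa2 at 13.6 in both pools. Above 0 in difference were 3 of the 6 measured, against 59.5% of all genes past the filter. The summed linear level of these 6 markers was 40330 in wild-type and 39937 in knockout-labelled liver. Such a sum gives most weight to the brightest probes, and levels of different genes are not comparable. The markers of steroid-making adrenal cortex, Star, Cyp11a1 and Cyp11b1, were below the level filter in both pools. Some markers of other tissues were past it. In exocrine pancreas Cela1 was at 7.30 in wild-type and 7.22 in knockout-labelled liver, with Prss2 and Cpa1 below the filter. In skeletal muscle Acta1 was at 6.05 and 6.09 and Ckm at 5.73 and 5.36, with Myh4 below the filter.

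Promoter sequences are shown first, because SREBP2 and NF-Y are known to act close to the start of sterol genes. The sequences are those of RefSeq on build GRCm38.p6, matched by symbol. A promoter was held for 22 of the 27 genes, and Fdft1, Fdps, Sqle, Npc1 and Stard4 had none in the table used. The windows below lie within 250 bases before the RefSeq start, read 5′ to 3′ on the strand of the gene, and run from 10 bases before the first motif to 10 after the last, or to the start itself. Capitals mark CCAAT or its complement ATTGG, the sterol response element TCACNCCAC and the E-box CACGTG. The genes shown are some of the leading members on the higher side, Mvd as an enzyme that was not higher, and Insig1 as the lowest member. Ggps1, with 3 CCAAT boxes, and Lss, with 1, differed more than Nsdhl but are not shown.

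Hmgcs1 (chr13:119690104-119690320, plus strand): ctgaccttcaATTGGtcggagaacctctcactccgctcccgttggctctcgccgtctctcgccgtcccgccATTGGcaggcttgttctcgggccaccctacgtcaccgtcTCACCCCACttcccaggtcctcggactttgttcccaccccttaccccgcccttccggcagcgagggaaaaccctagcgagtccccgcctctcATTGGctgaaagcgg
Idi1 (chr13:8885551-8885605, plus strand): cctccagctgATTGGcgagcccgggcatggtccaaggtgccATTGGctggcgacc
Nsdhl (chrX:72918402-72918515, plus strand): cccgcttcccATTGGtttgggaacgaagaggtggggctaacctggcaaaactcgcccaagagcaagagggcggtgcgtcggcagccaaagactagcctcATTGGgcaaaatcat
Npc2 (chr12:84773113-84773197, minus strand): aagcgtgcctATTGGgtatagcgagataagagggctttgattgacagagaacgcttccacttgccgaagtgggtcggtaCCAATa
Mvd (chr8:122443435-122443492, minus strand): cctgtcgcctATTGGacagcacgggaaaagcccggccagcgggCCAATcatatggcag
Insig1 (chr5:28071186-28071326, plus strand): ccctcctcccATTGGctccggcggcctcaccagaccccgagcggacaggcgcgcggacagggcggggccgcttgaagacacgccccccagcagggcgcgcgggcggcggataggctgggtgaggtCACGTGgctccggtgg

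A CCAAT box on either strand lay in the 250 bases before the start of 21 of the 22 sterol genes (95.5%), including all 15 synthesis enzymes with a promoter. The same letters were found for 37.5% of the 27025 genes in the promoter table and for 39.3% of those past the level filter. A gene with several listed starts counts as holding a motif if any of them does. Among genes with a single listed start, 17 of 17 sterol genes held the box against 34.7% of all such genes, and 11 of the 17 held at least 2 boxes against 10.7%. Scap was the sterol gene without one. Among all genes past the filter, those with the box and those without it both had a median difference of 0.042 between the pools.

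The other motifs were less uniform. The sterol response element as spelled above was found before 1 of the 22 genes, Hmgcs1, and before 1.22% of all genes. The E-box, a palindrome that SREBP proteins can also bind, lay before 6 of the 22 (27.3%), against 6.86% of all genes and 9.91% of those past the filter. These 6 were Dhcr7, Erlin1, Hsd17b7, Insig1, Sc5d and Scap. The GC box GGGCGG, a site for Sp1, lay before 20 of the 22 (90.9%), against 35.4% of all genes and 62.5% of those past the filter. No motif contains another, and a match describes the sequence only.

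**Figure D1:**
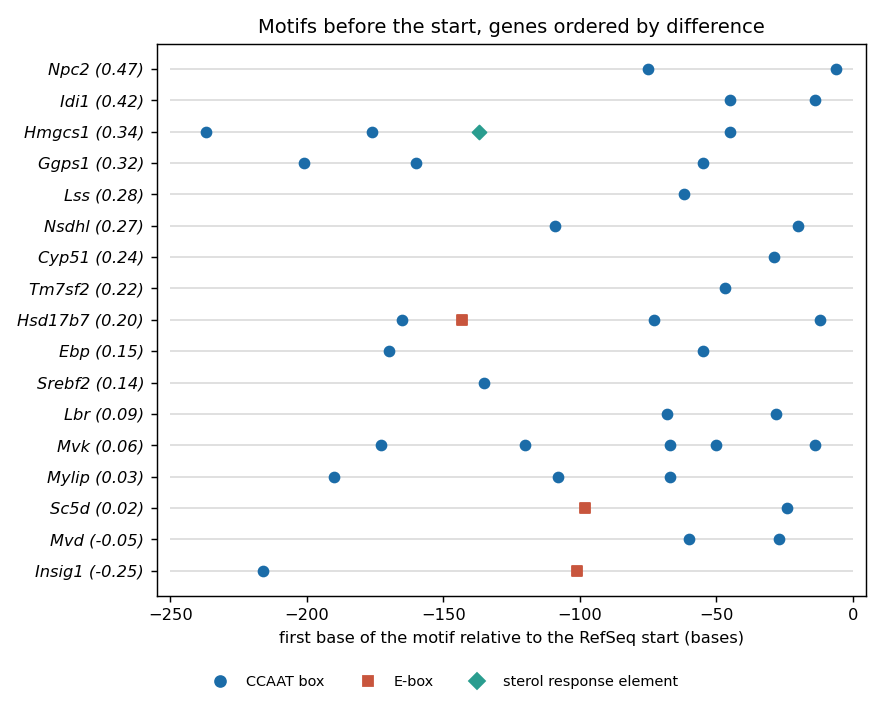
Position of the CCAAT box, the E-box and the sterol response element in the 250 bases before the RefSeq start, for the 17 sterol genes with a single listed start. The x axis gives the first base of each motif in bases from the start, and the number beside each gene is its log2 difference between the pools. Every gene has at least 1 CCAAT box, at the top and at the bottom of the order alike.

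As a group, the synthesis enzymes were modestly higher in the knockout-labelled pool. The median of the genes that control the pathway or move sterol was near that of all genes. Over the 18 synthesis enzymes measured the median difference was 0.20 on the log2 scale. These 18 include Ggps1, which leads away from sterols to geranylgeranyl diphosphate. Over the 9 control, transfer and uptake genes the median was 0.029, and over all 11924 genes it was 0.040. Of these 9 genes 7 were above 0 (77.8%), against 59.5% of all genes past the filter. Their mean was 0.069, against 0.033 over all genes. The largest differences belonged to Npc2 at 1.38-fold, Idi1 at 1.34-fold and Hmgcs1 at 1.27-fold higher, and the only member lower by more than the probe SD was Insig1, at 1.19-fold lower.

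Of the 27 sterol genes, 23 were above 0 in difference (85.2%), where 59.5% of all genes past the filter were above 0. A 1.2-fold higher value was reached by 6 of the 27, Npc2, Idi1, Hmgcs1, Ggps1, Lss and Nsdhl, and by 8.66% of all genes. A 1.2-fold lower value was reached by 0 of 27 and by 6.16% of all genes. No sterol gene reached 1.5-fold in either direction, whereas 0.621% of all genes were that much higher and 0.335% that much lower. Above the probe SD of 0.143 were 15 of the 27, against 25.2% of all genes, and Insig1 was the 1 gene below minus that SD, against 15% of all genes.

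The sterol genes are not dim, and genes in their range of level lay slightly higher in difference than all genes past the filter, whose median was 0.040. Over the 6639 genes between the lowest and the highest mean value of the members, 7.08 to 12.1, the median difference was 0.057 and 66.2% were above 0. In that range 7.29% of genes were at least 1.2-fold higher and 2.98% at least 1.2-fold lower. With the trend on level removed by lowess, the median over the sterol genes was 0.12, and 3 of the 27 were at least 1.2-fold higher, Npc2, Idi1 and Hmgcs1. Under lowess Insig1 was at least 1.2-fold lower, at -0.27, and 19 of the 27 were above 0.

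**Figure D2:**
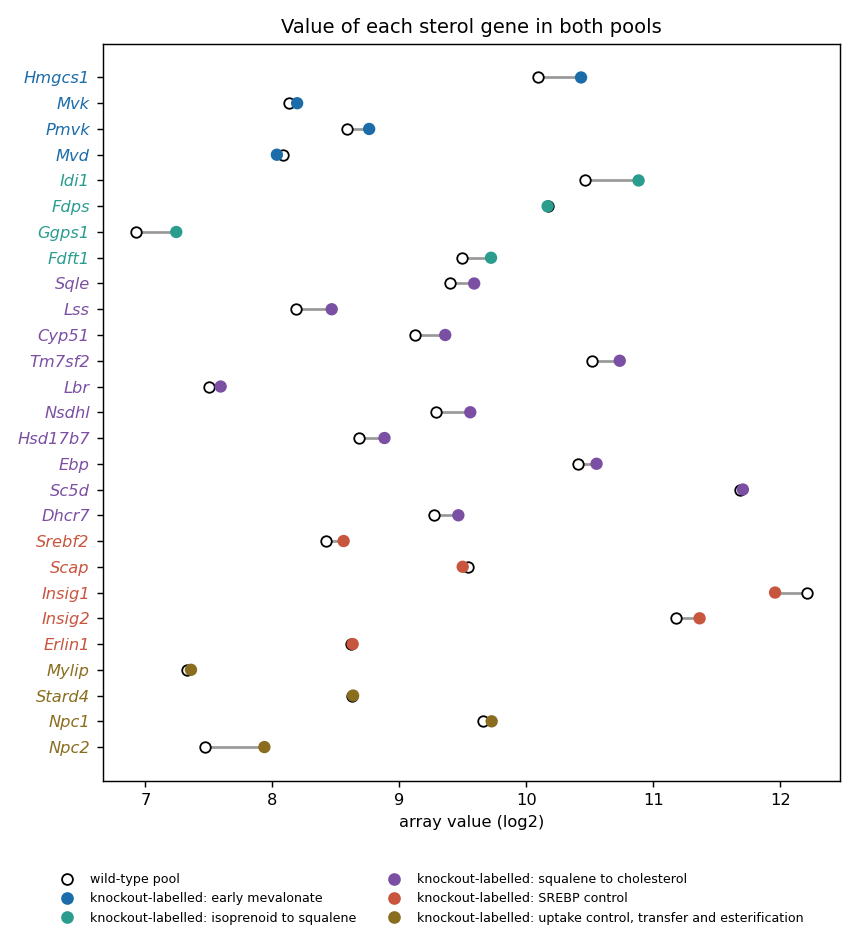
Log2 array value of each of the 27 measured sterol genes in the wild-type pool (open circles) and in the knockout-labelled pool (filled circles, coloured by role), 1 array per pool. The filled circle lies to the right for 23 genes, and levels of different genes are not comparable because each probe binds differently.

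The first steps join acetyl-CoA units and turn mevalonate into an activated isoprene. In each case below the wild-type value comes first. Hmgcs1, the synthase upstream of mevalonate (Entrez gene 208715), was at 10.1 and 10.4, a difference of 0.34 that lay at percentile 95.9 of all genes past the filter. The kinase Mvk was at 8.13 and 8.19, a difference of 0.064. Pmvk, the kinase that follows it, was at 8.59 and 8.76, a difference of 0.17. Of these early genes, Hmgcs1 and Pmvk exceeded the probe SD and Mvk did not. The decarboxylase Mvd, which completes the activated isoprene, was at 8.08 and 8.03, a difference of -0.048. The 4 early genes measured had a median difference of 0.12, with 3 above 0, against 59.5% of all genes past the filter.

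The isoprenoid steps differed from enzyme to enzyme. Idi1, the isomerase of the activated isoprene (Entrez gene 319554), was at 10.5 and 10.9 by its brighter probe, and its percentile among all genes was 98.1. Its other probe gave 9.83 and 10.2, a difference of 0.32, so both probes were higher in the knockout-labelled pool, and their mean difference was 0.37. Fdps, which makes farnesyl diphosphate next in line, was at 10.2 in both pools, with a difference of -0.0041, or 0.014 with equal array medians. The isomerase was thus 1.34-fold higher, while the next enzyme differed by less than the probe SD.

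At farnesyl diphosphate the route divides. Ggps1 leads away from sterols, to the geranylgeranyl diphosphate used in protein prenylation, and it was at 6.93 and 7.24, a difference of 0.32. Fdft1, squalene synthase and the first enzyme committed to sterols, was at 9.49 and 9.72 by its brighter probe, a difference of 0.23. Its other probe gave 9.27 and 9.35, a difference of 0.078, below the probe SD. Both branch enzymes were higher, and the size for Fdft1 depends on the probe, with 0.15 as the mean of its probes. The 4 isoprenoid genes had a median of 0.27.

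From squalene onward all 10 enzymes were above 0, except that Sc5d turned to -0.0045 under lowess, with a median difference of 0.20 and a range of 0.022 to 0.28. Squalene epoxidase Sqle, an oxygen-dependent control point, was at 9.40 and 9.59, a difference of 0.19. Lss, which closes the epoxide into lanosterol, was at 8.19 and 8.47, a difference of 0.28 at percentile 92.5. Cyp51, the cytochrome that removes the first methyl group from lanosterol, was at 9.12 and 9.36, a difference of 0.24. These 3 successive steps thus all exceeded the probe SD in the same direction.

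Reduction after the Cyp51 step can be done by either of a pair of related membrane reductases. Tm7sf2 was at 10.5 and 10.7, a difference of 0.22. Lbr, which is also the lamin B receptor of the inner nuclear membrane, was at 7.50 and 7.59, a difference of 0.088. The difference passed the probe SD for Tm7sf2 and not for Lbr. Removal of further methyl groups involves Nsdhl, a sterol dehydrogenase at 9.28 and 9.56 with a difference of 0.27, and the ketoreductase Hsd17b7 at 8.68 and 8.88 with a difference of 0.20.

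The last steps rearrange and reduce the sterol ring. Ebp, the sterol isomerase, was at 10.4 and 10.6, a difference of 0.15 that only just exceeded the probe SD. The desaturase Sc5d was at 11.7 in both pools, with a difference of 0.022 that was the smallest of these 10. Dhcr7, which reduces the immediate precursor of cholesterol, was at 9.27 and 9.46, a difference of 0.19. Of the 18 synthesis enzymes 13 were above the probe SD, against 25.2% of all genes past the filter, and Mvk, Mvd, Fdps, Lbr and Sc5d were not.

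**Figure D3:**
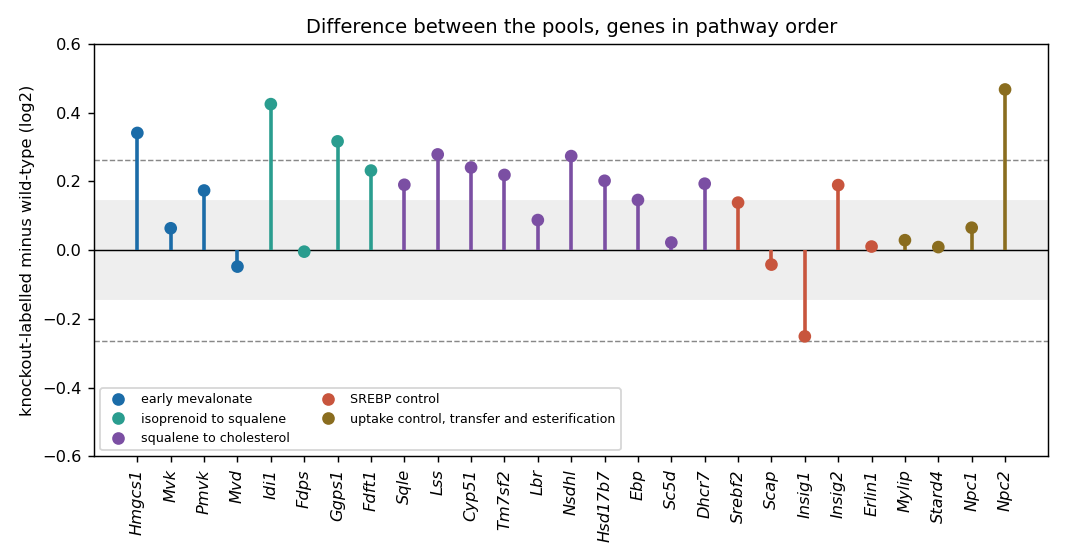
Log2 difference, knockout-labelled minus wild-type, for the 27 sterol genes in pathway order, coloured by role. The grey band spans plus and minus the SD between probes of 1 gene (0.143), and the dashed lines mark 1.2-fold. All 10 enzymes from Sqle to Dhcr7 lie above 0 (Sc5d at -0.0045 under lowess), Insig1 lies lowest at -0.25 and Npc2 highest at 0.47.

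The control genes lay on both sides of 0. Srebf2 was at 8.42 and 8.56, a difference of 0.14 that stayed within the probe SD. Scap, the escort that senses sterol, was at 9.54 and 9.50, a difference of -0.042. Insig1, itself a target of SREBP (Entrez gene 231070), was at 12.2 and 12.0, a difference of -0.25 at percentile 6.75 of all genes. Its paralogue Insig2, which in liver has a start site of its own that insulin represses, was at 11.2 and 11.4, a difference of 0.19 at percentile 82.9. The Insig genes thus lay on opposite sides of 0, each beyond the probe SD and each with 1 probe. Erlin1, a membrane protein of the endoplasmic reticulum that takes part in degrading Insig-bound proteins, was at 8.62 and 8.63, a difference of 0.011, or -0.042 under lowess. The 5 control genes had a median of 0.011, and 3 of the 5 were above 0 (60%), near the 59.5% of all genes past the filter.

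Genes of uptake control and transfer were level with the background apart from Npc2. Mylip, a ubiquitin ligase under the sterol receptor LXR that marks lipoprotein receptors for degradation, was at 7.33 and 7.36, a difference of 0.029. The cytosolic sterol carrier Stard4 was at 8.63 and 8.64, a difference of 0.0092. Npc1, the lysosomal membrane protein that exports cholesterol, was at 9.66 and 9.73, a difference of 0.066. Each of these was within the probe SD, and under lowess Mylip and Stard4 turned to -0.033 and -0.044. Npc2, the soluble lysosomal protein that hands cholesterol to Npc1 (Entrez gene 67963), was at 7.47 and 7.94, a difference of 0.47 at percentile 98.7. Of the partners in this export step, Npc2 thus differed by more than the probe SD and Npc1 did not, and both have 1 probe.

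**Figure D4:**
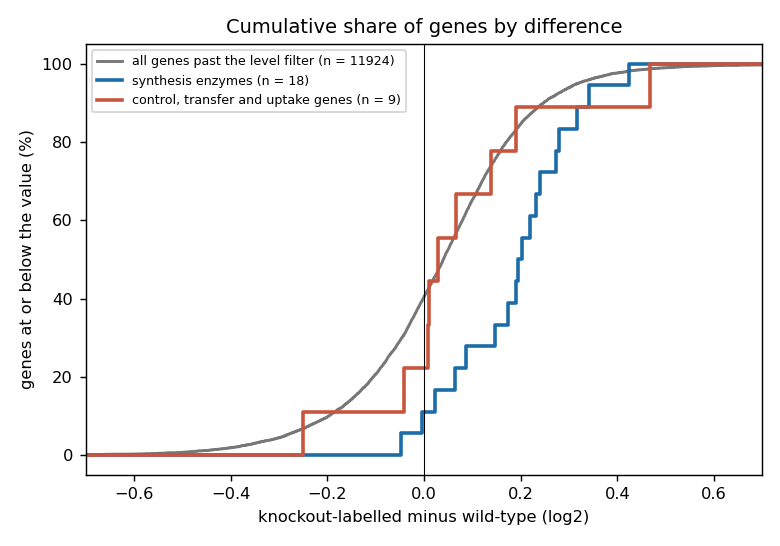
Cumulative share of genes by log2 difference, for the 18 synthesis enzymes, the 9 control, transfer and uptake genes and all 11924 genes past the level filter. The curve of the synthesis enzymes lies to the right, with its median at 0.20 against 0.040 for all genes. The other sterol genes have a median of 0.029, with 7 of 9 above 0.

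Neighbouring pathways gave a frame for these values. The machinery that cuts SREBP or degrades sterol-sensing proteins had 9 of its 11 listed genes measured and a median difference of -0.017. Above 0 were 4 of the 9, against 59.5% of all genes past the filter. Syvn1, a ubiquitin ligase of the endoplasmic reticulum that also serves the folding stress response, was 1.56-fold lower at 9.43 and 8.79, and Erlin2, the partner of Erlin1, was 1.23-fold higher at 7.78 and 8.08. Genes that use isoprenoids for prenylation, dolichol or ubiquinone had a median of 0.017 over 12 of 13 genes. None of the 12 reached 1.2-fold, where 8.66% of all genes were that much higher and 6.16% that much lower. The 12 isoprenoid genes ran from -0.16 for Dhdds, a subunit of the dolichol-making prenyltransferase, to 0.17 for Rabggtb, a subunit of the enzyme that prenylates Rab proteins. Of the enzymes that supply the branches, Ggps1 was at 0.32 and Fdps at -0.0041.

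Sterol transfer and lysosomal genes had a median of 0.080 over the 10 past the filter of 11. Above 0 were 9 of these 10, against 59.5% of all genes past the filter. The sterol transfer protein gene Gramd1c was the 1 member at 1.2-fold, at 8.58 and 8.84. The lysosomal genes Lipa, Lamp1 and Lamp2 were at 0.070, 0.033 and 0.035, close to the median of all genes and well below Npc2. Genes of LXR and sterol efflux had a median of 0.082 over 8 of 9 genes. Against 8.66% of all genes, 3 of the 8 were at least 1.2-fold higher. These were Cyp7a1, which starts the classic route from cholesterol to bile acids, at 8.14 and 8.67, and the sterol exporters Abcg5 at 9.61 and 9.91 and Abcg8 at 9.40 and 9.70. Abca1, an LXR target that exports cholesterol to lipoprotein, was at -0.014, and Abcg1 at -0.0086, so these LXR targets lay near 0 while Abcg5 and Abcg8 did not.

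The factors that share promoters with SREBP were near 0 or below apart from 1. Nfya, Nfyb and Nfyc, the subunits of NF-Y, were at -0.050, -0.034 and -0.15, and Sp1 at -0.10. Creb1, a cAMP-responsive factor, was 1.34-fold higher at 7.28 and 7.70. The lipogenic genes governed by the related SREBP1 had a median of 0.0073, with 5 of 10 above 0. Among them Elovl6, a fatty acid elongase, was 1.56-fold higher at 7.51 and 8.16, and Thrsp, a nuclear regulator of lipogenesis, was 1.31-fold higher at 10.5 and 10.9. Acss2 was at 0.24 and Acly at 0.20, both beyond the probe SD. Fasn, fatty acid synthase, was at -0.11 and Srebf1 at -0.13, both within it. The mean over the SREBP1 list was 0.11, above the mean of 0.033 over all genes. Its 5 of 10 above 0 stand beside the 59.5% of all genes past the filter. Of the 18 synthesis enzymes, Ggps1 included, 16 were above 0.

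**Figure D5:**
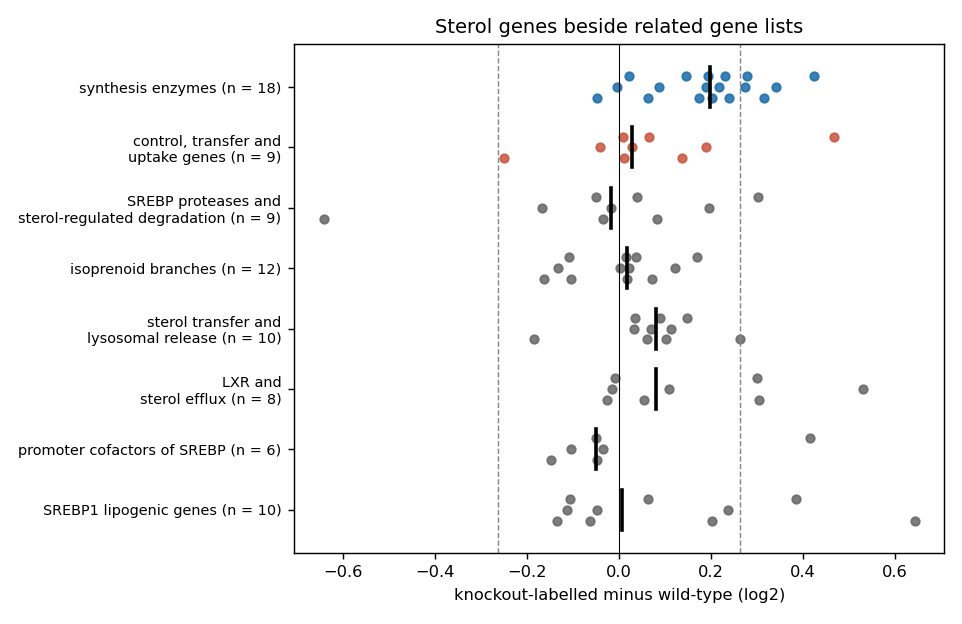
Log2 difference of each gene past the level filter in the sterol groups and in 6 related lists, with a black bar at each median and dashed lines at 1.2-fold. The 18 synthesis enzymes, drawn as 1 group, have a median of 0.20, and the medians of the related lists run from -0.049 for the promoter cofactors to 0.082 for LXR and sterol efflux.

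Markers of some other liver cells differed between the pools too. The counts below stand beside the 59.5% of all genes past the filter that were above 0. All 7 Kupffer cell and macrophage markers were below 0, with a median of -0.27 and a summed linear level of 2426 in wild-type and 2127 in knockout-labelled liver. Of 6 sinusoidal endothelial markers 5 were above 0, with a median of 0.13 and summed levels of 2691 and 2950. Stellate markers had 2 of 5 above 0, with summed levels of 2098 and 1990. The brightest of the stellate markers was Dcn, at 10.4 and 10.3, which weighs most in these sums. Of 3 bile duct markers past the level filter, 2 were above 0. The summed level of the 4 bile duct markers measured, Epcam below the filter included, was 247 and 255. In bulk RNA fewer cells of a type and less RNA per cell cannot be told apart. The part of cell makeup in the sterol differences was not tested, and that of feeding or time of day, which the labels do not give, was not tested either.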

How the data were processed

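The values deposited by the authors are on a log2 scale, with 28853 probe sets (probes here) on each array. RMA, Partek 6.4 and Affymetrix Expression Console 1.0 are listed in the submitters' processing notes, which state neither their order nor their use. The genome build is not given in the sources used here. Per the labels' protocols, 300 ng of total RNA per pool was converted and biotin-labelled. RMA brings arrays to a common distribution, which hides changes in total RNA, and compresses differences of dim transcripts. Precision is limited by the number of arrays.

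Gene names came from the platform annotation, in which 21789 probes had 1 symbol, 1621 several and 5443 none, and a gene took its probe with the highest mean. The fold thresholds were 1.2 and 1.5. The members, lists and thresholds were chosen with earlier results of these data known. Named outside the members were genes of related lists past 1.2-fold, up to 4 per list. Lipa, Lamp1, Lamp2, Abca1, Abcg1, Rabggtb, Dhdds, Fasn, Srebf1, Acly, Acss2, Sp1 and the NF-Y genes were named after their values were seen. No test was possible with 1 array per group. The alternatives tried were lowess with a span of 0.3 (statsmodels 0.14.6), equal array medians, the mean over probes, list means, and a level filter left out or set at the 60th percentile. On simulated data for this comparison over 19938 genes, 100% of 200 genes changed by known amounts kept their direction. The planted changes were larger than most sterol differences, and the simulated noise was smaller than the probe SD. The simulation thus checks the calculation only, and not whether differences as small as those of the sterol genes can be read.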

Additional observations from a re-analysis of the deposited data

How the results depend on the processing

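No paired analysis was possible because each group has 1 array. Of 117 comparisons of a list or count with its alternative, 99 kept their sign and stayed within the probe SD divided by the root of the number of genes, or, for counts, within 1.5 times. All 81 comparisons of single sterol genes moved by less than the probe SD, though 5 genes near 0 changed sign (Fdps, Sc5d, Mylip, Stard4 and Erlin1). Most of the 81 could not have moved further. Equal array medians shift every gene by the same 0.018, and the mean over probes cannot move the 25 members with 1 probe. The level filter moved no sterol gene, since all 27 lay above either filter. Medians of sterol groups and member counts thus could not change with the filter. Those comparisons are among the 117, as are means over probes for sterol groups without Idi1 or Fdft1. The 99 therefore include comparisons whose outcome was fixed in advance.

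Removing the trend on level by lowess lowered the list median to 0.12, the synthesis median to 0.15 and that from squalene to cholesterol to 0.15. It turned the medians of the other 9 sterol genes to -0.033, of SREBP control to -0.042, of uptake and transfer to -0.0059, of isoprenoid branches to -0.044 and of SREBP1 lipogenic genes to -0.019, and took the SREBP protease list to -0.076. Under it 3 sterol genes reached 1.2-fold on the higher side and 1 on the lower. The common median shift of 0.018 turned the SREBP protease list to 0.0015. Means in place of medians gave 0.12 for synthesis minus the other sterol genes (0.17 with medians), 0.14 for uptake and transfer, -0.0036 for isoprenoid branches, 0.16 for LXR and efflux, 0.0053 for the promoter cofactors and 0.11 for SREBP1 genes. The cause of these changes was not tested. The sterol median exceeded that of all genes by 0.13, and by 0.12 against genes in the same level range, a background chosen after seeing the data.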
